A study of Mus musculus with 2 samples.

Results

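The 8 genes described here encode transcription factors that set the identity of effector lymphocytes: *Tbx21*, *Eomes*, *Id2*, *Zeb2*, *Gata3*, *Foxp3*, *Batf* and *Runx3*. They were chosen by name, as 8 of the 32285 genes in the count matrices, and all 8 were found in every library. Their unique molecular identifier counts (UMIs, 1 per captured transcript) were summed over 4 classes of cell barcode. CD8 T barcodes carried *Cd3e* and *Cd8b1* UMIs, CD4 T barcodes carried *Cd3e* and *Cd4* but no *Cd8b1*, NK barcodes carried *Ncr1* but no *Cd3e*, and B barcodes carried *Cd79a* and *Ms4a1*. Levels are given as CPM, the gene's UMIs scaled to a class total of 1000000 UMIs, which allows one gene to be compared between classes but not one gene with another.

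The cells came from C57BL/6 mice with the wild type *Ptpn22* gene, which encodes the phosphatase PEP (PEP-WT), or with a coding change in it that is linked to autoimmunity (PEP-619WW). By the study's methods, both genotypes were 6 to 12 weeks old and were taken 8 dpi with 1000000 PFU of the chronic LCMV strain clone 13. No uninfected group was compared here. The study's methods describe 4 to 5 pooled spleens per genotype that were sorted for live CD45+ cells, while the labels place both samples in the liver and call them tumor infiltrating and of the cell line Jurkat. Each genotype had 1 library in each of 2 runs, so no difference between genotypes has a replicate check, and every interval below covers counting error only.

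T-bet (*Tbx21*) and Eomesodermin (*Eomes*) are paired T-box factors that drive cytotoxic and type 1 programs in NK, CD8 T and helper cells. ID2 blocks E proteins and favors effector over memory precursor fate, while ZEB2 acts with T-bet to fix terminal effector genes. GATA3 directs type 2 helper and early T cell programs, FOXP3 defines regulatory T cells, BATF is an AP-1 factor induced by antigen receptor signals, and RUNX3 represses *Cd4* and supports cytotoxic genes.

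The libraries stood apart before any comparison. PEP-WT gave 14821 barcodes in run 1 and 9539 in run 2, and PEP-619WW gave 8576 and 11029, with median depths from 2832 to 4837 UMIs. *Xist*, expressed from the inactive X chromosome, was at 826 and 803 CPM in run 1 (PEP-WT, PEP-619WW) but at 261 and 0.0901 CPM in run 2. Y-linked genes were at 0.0385 and 0 CPM in run 1, and at 69.4 and 160 CPM in run 2. In run 2 PEP-WT, 31.1% of barcodes held *Xist* and 28.5% held Y-linked UMIs, whereas PEP-619WW held Y-linked UMIs (46.3%) with almost no *Xist*. The libraries of run 2 thus differed in their make-up by sex, although the study's methods call the mice sex matched. Sex and genotype cannot be told apart there. At least 3 of 6 melanocyte genes were seen in 274 PEP-WT and 27 PEP-619WW barcodes of run 2 and in none of run 1, and the myeloid gene *Lyz2* was in 92.0% and 64.5% of run 2 barcodes against 25.9% and 37.0% in run 1. The 4 hepatocyte genes gave at most 2 UMIs in any library, but a CD45+ sort would remove hepatocytes, so this does not check the liver label, and 19 to 49 barcode sequences occurred in both libraries of a pair. The cell numbers in the study's methods equal the barcode numbers of the second run, and no numbers given there match the first. Whether the spleens, the pooling, the sort and the infection hold for the first run, the second or both is not stated. The sources used here do not say how the runs differ. They were therefore kept apart, and run 2 PEP-WT, with 28 CD8 T, 11 CD4 T, 2 NK and 2 B barcodes, was read for CD8 T alone. The tag counts at the transcript's 3′ end do not cover the changed *Ptpn22* codon, so *Ptpn22* counts (76.7 and 94.7 CPM in run 1) do not check the genotype.

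In run 1 the classes held 1439 and 953 CD8 T, 304 and 216 CD4 T, 77 and 37 NK, and 6937 and 3144 B barcodes (PEP-WT, PEP-619WW). Median depth was higher in PEP-619WW in each class, for example 6038 against 8660 UMIs in CD8 T and 4441 against 6514.5 UMIs in CD4 T barcodes. The 4-gene erythroid marker list went the other way, at 7550 and 182 CPM in NK, 1521 and 44.2 CPM in CD4 T, 1100 and 229 CPM in CD8 T and 2419 and 321 CPM in B barcodes, and its part in the differences between genotypes was not tested. The gates are not pure. A short screen for other lineages used *Lyz2* and *Csf1r* in every class, with *Cd79a*, *Ms4a1* and *Ncr1* in T cells (and *Cd4* in CD8 T), *Cd3d*, *Cd3g* and *Cd79a* in NK, and *Cd3e*, *Cd3d* and *Ncr1* in B barcodes. UMIs of these screen genes were present in 47.1% and 49.3% of CD8 T, 40.8% and 36.6% of CD4 T, 53.2% and 45.9% of NK and 26.0% and 33.2% of B barcodes. Longer marker lists gave higher shares, so barcodes free of the screen genes are not free of other lineages. The 7-gene B cell list was in 73.1% and 77.1% of CD8 T and 74.7% and 81.5% of CD4 T barcodes, and the 7-gene myeloid list in 59.8% and 80.1% of CD8 T, 51.6% and 72.7% of CD4 T, 66.2% and 75.7% of NK and 41.0% and 66.6% of B barcodes. In addition, 213 PEP-WT and 123 PEP-619WW barcodes passed both the CD8 T and the B gate. The summed level of each class's own markers set the classes apart, although most single markers were also detected in other classes. The 7 T cell markers were at 4104 and 3815 CPM in CD8 T and 4422 and 5492 CPM in CD4 T barcodes, against 814 and 651 CPM in NK and 454 and 424 CPM in B barcodes. The 10 NK markers, which include the gate gene *Ncr1*, were at 18690 and 19135 CPM in NK barcodes and at no more than 1556 CPM in the other classes, and the 7 B cell markers were at 5909 and 6284 CPM in B barcodes and at no more than 1791 CPM elsewhere.

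In GRCm38 (GENCODE M21), the genes lie at chr11:97098071-97115331 (*Tbx21*, ENSMUSG00000001444), chr9:118478212-118486132 (*Eomes*, ENSMUSG00000032446), chr12:25093799-25097140 (*Id2*, ENSMUSG00000020644) and chr2:44983632-45117395 (*Zeb2*, ENSMUSG00000026872). The others lie at chr2:9857078-9890034 (*Gata3*, ENSMUSG00000015619), chrX:7573644-7595245 (*Foxp3*, ENSMUSG00000039521), chr12:85686669-85709087 (*Batf*, ENSMUSG00000034266) and chr4:135120652-135177990 (*Runx3*, ENSMUSG00000070691).

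The promoters of 3 members are printed. Among members with at least 20 UMIs over both libraries, *Eomes* and *Id2* differed most between genotypes in CD8 T barcodes of run 1, in opposite directions. *Runx3* was added because its counting intervals excluded 0 on opposite sides in different classes of that run. Each run is the 250 bases before a RefSeq transcription start (GRCm38.p6, 5′ to 3′ on the gene's strand). Capitals mark matches, on either strand, to the T-box letters GGTGTGA, the RUNX letters TGTGGT, the AP-1 letters TGANTCA (bound by BATF dimers) and the E-box CAGGTG (bound by ZEB factors). The matches printed do not overlap each other.
Eomes, chr9:118477939-118478188, + strand: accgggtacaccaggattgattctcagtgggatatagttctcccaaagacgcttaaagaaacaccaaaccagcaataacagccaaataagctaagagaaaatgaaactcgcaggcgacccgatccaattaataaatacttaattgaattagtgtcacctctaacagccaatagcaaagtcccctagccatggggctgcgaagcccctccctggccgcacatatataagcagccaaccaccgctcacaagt
Id2, chr12:25096093-25096342, − strand: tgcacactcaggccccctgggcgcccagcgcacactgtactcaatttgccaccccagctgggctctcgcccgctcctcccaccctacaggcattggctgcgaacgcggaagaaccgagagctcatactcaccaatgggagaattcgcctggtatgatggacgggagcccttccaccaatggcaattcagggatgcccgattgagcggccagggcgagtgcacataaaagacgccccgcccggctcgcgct
Runx3, chr4:135120395-135120644, + strand: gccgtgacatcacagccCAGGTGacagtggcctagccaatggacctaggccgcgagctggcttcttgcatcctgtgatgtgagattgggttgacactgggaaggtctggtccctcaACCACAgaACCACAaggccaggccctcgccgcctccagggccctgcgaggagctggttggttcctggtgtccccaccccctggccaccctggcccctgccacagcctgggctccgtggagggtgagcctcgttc
The *Runx3* window held 2 RUNX matches, both on the opposite strand, and 1 E-box. A second *Runx3* window, at chr4:135152295-135152544 on the + strand, held none of the 4 motifs, and the *Eomes* and *Id2* windows held none of the 4 motifs. Among 32851 windows of the same length, 14.0% held the RUNX letters, 17.2% the E-box, 6.75% the AP-1 letters and 3.33% the T-box letters. These matches are letters only and carry no measurement of binding.

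In run 1, *Tbx21*, *Eomes* and *Id2* stepped down from NK to B barcodes. *Tbx21* was highest in NK barcodes of run 1, at 114 CPM in PEP-WT and 100.5 CPM in PEP-619WW. It stood at 49.9 and 51.8 CPM in CD8 T, 16.5 and 26.0 CPM in CD4 T, and 9.0 and 10.1 CPM in B barcodes. The order NK, CD8 T, CD4 T, B held in both libraries, and each neighboring pair was apart beyond its counting interval. *Eomes* had the same order, with 75.3 and 100.5 CPM in NK, 40.9 and 22.3 CPM in CD8 T, 15.3 and 14.4 CPM in CD4 T, and 4.08 and 1.58 CPM in B barcodes. *Id2* followed this order too, from 759 and 928 CPM in NK to 67.5 and 92.5 CPM in B barcodes, with every neighboring pair apart.

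*Zeb2* was highest in NK barcodes (220 and 129 CPM) and lowest in CD4 T barcodes (62.3 and 45.9 CPM). CD8 T and B barcodes lay close together, at 86.3 and 79.8 CPM in PEP-WT and at 79.4 and 80.9 CPM in PEP-619WW, where they overlapped within counting error. *Runx3* was also highest in NK barcodes (184 and 191 CPM), with CD8 T barcodes next at 151 and 134 CPM. NK and CD8 T could not be set apart in PEP-WT (log2 ratio 0.29, −0.09 to 0.64). B and CD4 T barcodes held 56.6 and 52.4 CPM of *Runx3* in PEP-WT, and 43.2 and 68.6 CPM in PEP-619WW.

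The helper-associated factors were arranged otherwise. *Batf* was highest in CD4 T barcodes, at 286 and 305 CPM, against 126 and 97.6 CPM in CD8 T, 37.1 and 26.4 CPM in B and 36.3 and 23.9 CPM in NK barcodes. *Foxp3* was at 12.4 and 16.0 CPM in CD4 T, and at 0.721 and 0.398 CPM in CD8 T barcodes. No *Foxp3* UMI was found in 77 and 37 NK barcodes, which allows up to 8.37 and 14.4 CPM by a limit of 3 counts. *Gata3* did not separate NK (39.0 and 71.8 CPM, on 14 and 15 UMIs) from CD4 T (38.8 and 43.1 CPM), and both lay above CD8 T (21.0 and 24.1 CPM) and B (2.67 and 2.37 CPM).

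**Figure D1:**
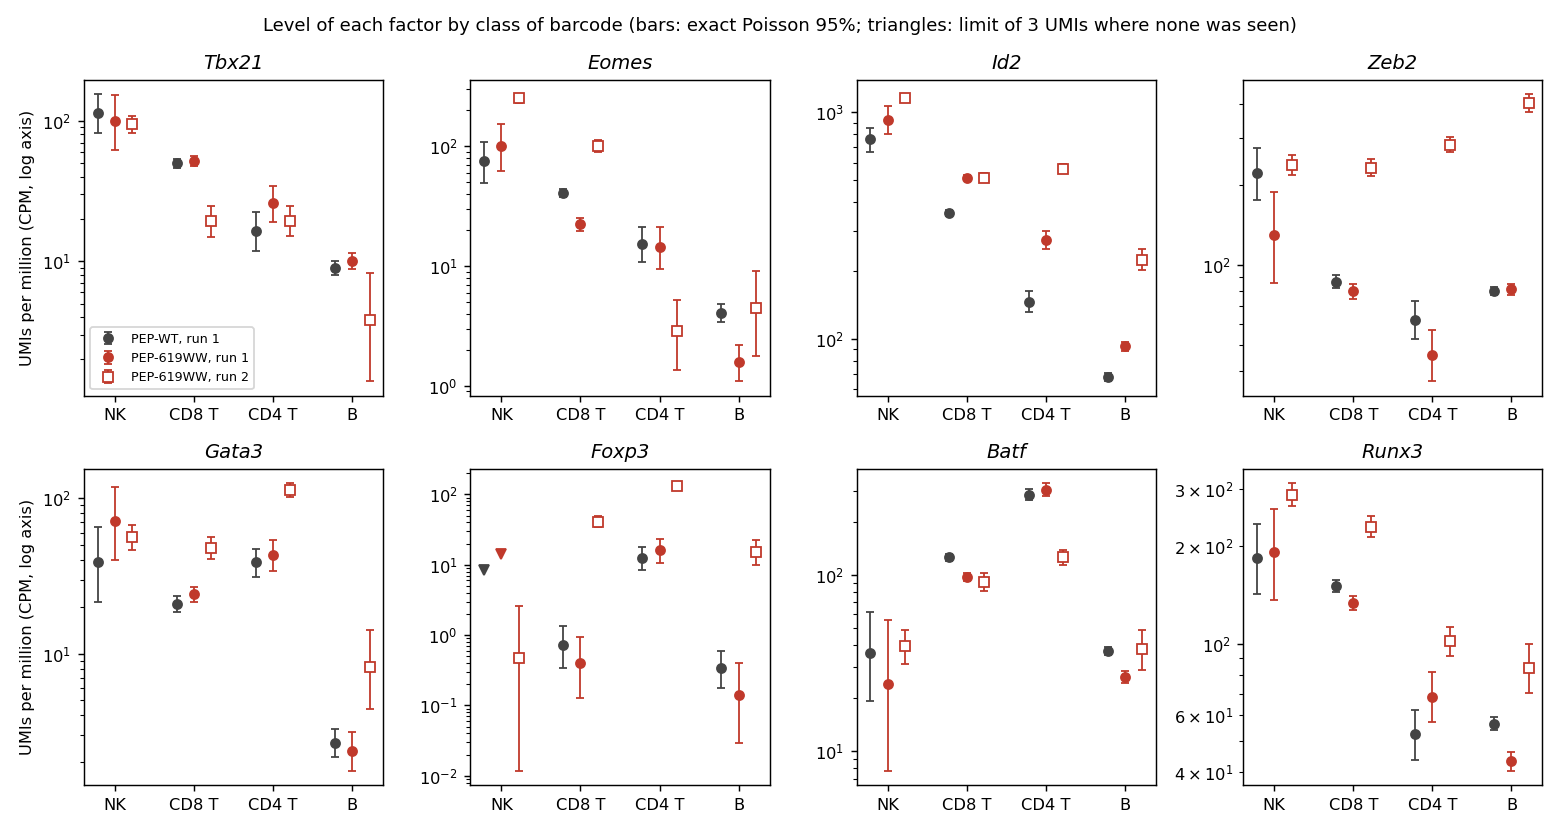
Level of each of the 8 factors (CPM, log axis) in NK, CD8 T, CD4 T and B barcodes of the run 1 PEP-WT, run 1 PEP-619WW and run 2 PEP-619WW libraries, with exact Poisson 95% bars and triangles at the 3-count limit where no UMI was seen. *Tbx21*, *Eomes* and *Id2* step down from NK to B in both run 1 libraries, while *Batf* and *Foxp3* peak in CD4 T barcodes.

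The run 2 PEP-619WW library had 394 CD8 T, 387 CD4 T, 466 NK and 503 B barcodes and gave a partly different order. NK remained highest for *Tbx21* (94.6 CPM), *Eomes* (251 CPM), *Id2* (1158 CPM) and *Runx3* (289 CPM). Below NK, the run 1 order did not hold for the first 3 of these. *Tbx21* was level in CD4 T and CD8 T barcodes (19.4 CPM in each), and *Id2* was higher in CD4 T (564 CPM) than in CD8 T (515 CPM). *Eomes* overlapped between B (4.44 CPM) and CD4 T barcodes (2.85 CPM). *Zeb2*, which myeloid cells also express, was highest in B barcodes (404 CPM), and NK (237 CPM) and CD8 T (231 CPM) were lowest and overlapped within counting error. The 7-gene myeloid marker list was at 4436 CPM in those B barcodes and at 2151 CPM in the CD8 T barcodes, and its part in the *Zeb2* order was not tested. *Gata3* peaked in CD4 T barcodes at 113 CPM. *Foxp3* reached 131 CPM in CD4 T and 41.0 CPM in CD8 T barcodes, and *Batf* was 126 and 91.1 CPM there.

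The main comparison asked how the lineage factors differed between genotypes within each class. A member was counted as higher or lower when its CPM differed at least 1.5-fold on at least 20 UMIs summed over both libraries. In CD8 T barcodes of run 1, 7 of the 8 members had enough UMIs, none was higher and 1, *Eomes*, was lower in PEP-619WW. Across all 12218 genes with enough UMIs in that class, 5.95% were higher and 6.70% lower by the same rule (12.7% in either direction), and a single member of 7 does not stand apart from that background. The median log2 difference of the 7 members was −0.12, against 0.00 for all genes.

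*Eomes* gave 567 UMIs in 1439 PEP-WT and 280 UMIs in 953 PEP-619WW CD8 T barcodes, or 40.9 CPM (exact Poisson 95% interval 37.6 to 44.4) and 22.3 CPM (19.7 to 25.1). The intervals did not overlap, and PEP-WT was 1.83-fold higher (log2 PEP-619WW over PEP-WT −0.88, −1.09 to −0.67). The NK marker list was at 1556 CPM in PEP-WT and 959 CPM in PEP-619WW CD8 T barcodes. That list includes *Gzma*, which CD8 T cells also express and which was itself lower in PEP-619WW (values below). The share of barcodes with UMIs of the list went the other way, at 68.8% and 79.2%. The part of the list in the *Eomes* difference was not tested. *Id2* went the other way, from 360 CPM (350 to 370) to 514 CPM (501 to 526), a log2 difference of 0.51 (0.46 to 0.57) that stayed under 1.5-fold. *Tbx21*, the partner of *Eomes*, was level between genotypes at 49.9 CPM (46.3 to 53.8) and 51.8 CPM (47.9 to 55.9).

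The other members of the CD8 T class differed less. *Batf* was at 126 and 97.6 CPM (log2 −0.37, −0.47 to −0.26) and *Runx3* at 151 and 134 CPM (log2 −0.17, −0.27 to −0.08). Without the barcodes that carried screen genes of other lineages, these values were −0.08 and −0.02, whereas *Eomes* kept −0.82 and *Id2* 0.66, past 1.5-fold. *Zeb2* (86.3 and 79.4 CPM) and *Gata3* (21.0 and 24.1 CPM) had intervals that included 0. *Foxp3*, with 10 and 5 UMIs, was too sparse to be read.

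**Figure D2:**
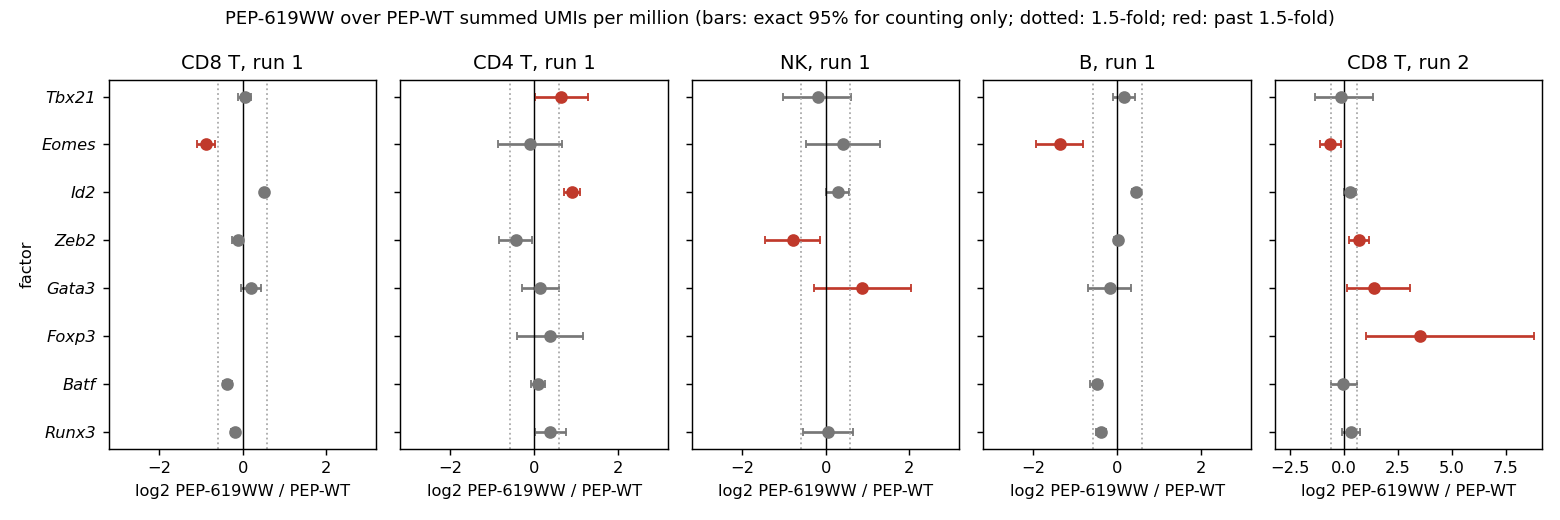
log2 of PEP-619WW over PEP-WT for each factor in the 4 classes of run 1 and in CD8 T barcodes of run 2, with exact 95% counting intervals, dotted lines at 1.5-fold and members past it in red (those under 20 UMIs are left out, and the run 2 panel has a wider axis). In CD8 T barcodes of run 1 *Eomes* lies at −0.88 and *Id2* at 0.51, while *Tbx21* sits at 0.05.

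Other lineage factors were counted beside the members. Of 26 listed factors, 24 had enough UMIs, 1 was higher and 4 were lower in PEP-619WW, with a median log2 difference of −0.09. Among all genes of the CD8 T class 5.95% were higher and 6.70% lower. *Tcf7*, which encodes the memory and stem-like factor TCF-1, was at 94.3 and 40.7 CPM. *Id3*, the counterpart of *Id2* in memory precursors, was at 37.6 and 19.0 CPM. Both were lower as well without the barcodes marked by *Ccr7* or *Lef1*, which are described next (log2 −0.93, −1.11 to −0.75, and −0.89, −1.15 to −0.64). *Ikzf2* (43.9 and 29.1 CPM) and *Batf3* (10.3 and 6.69 CPM) were also lower, and *Bhlhe40*, an activation-induced factor, was higher (97.8 and 160 CPM). Among 14 effector genes regulated by T-box factors or linked to them, *Gzma* (758 and 370 CPM) and *S1pr5* (8.58 and 3.10 CPM) were lower, *Il18rap* (91.0 and 151 CPM) was higher, and the median log2 difference of the 14 was 0.22.

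The *Eomes* level was also read in 3 marker-defined groups within the CD8 T class. The first, chosen after seeing the data, carried *Ccr7* or *Lef1*, genes of naive and memory T cells, without *Gzmb*, *Gzma* or *Mki67*. It held 273 of the PEP-WT barcodes (19.0%, 17.0 to 21.1) and 55 of the PEP-619WW barcodes (5.77%, 4.38 to 7.45), so the make-up of the class differed between the libraries. Such shares also depend on depth, which was higher in PEP-619WW (medians of 3834 and 6184 UMIs in this group), and the part of depth in them was not tested. In this group *Eomes* was at 87.3 CPM (72.3 to 104) in PEP-WT, on 119 UMIs, and at 14.0 CPM (5.12 to 30.4) in PEP-619WW, on 6 UMIs (log2 −2.64, −4.12 to −1.48). *Tcf7* was at 416 and 312 CPM there (log2 −0.42, −0.70 to −0.14), and *Id3* at 107 and 100.1 CPM. Without the group, the rest of the CD8 T class had 35.8 and 22.6 CPM of *Eomes* (log2 −0.67, −0.89 to −0.45) and 384 and 526 CPM of *Id2* (log2 0.45, 0.40 to 0.51).

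Effector-marked barcodes (*Gzmb* or *Gzma*, without *Ccr7*, *Lef1* or *Mki67*) were 336 in PEP-WT and 250 in PEP-619WW, and they had 30.9 CPM (23.4 to 40.0) and 28.7 CPM (21.3 to 37.8), so no difference was detectable there. Cycling barcodes, which carried *Mki67* (539 and 412), had 32.6 and 20.5 CPM (log2 −0.67, −0.95 to −0.40).

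*Id2* was higher in PEP-619WW in effector-marked (662 and 833 CPM) and cycling barcodes (335 and 422 CPM), and in *Ccr7*/*Lef1*-marked barcodes it was at 139 and 172 CPM (log2 0.31, −0.10 to 0.70), where the side of 0 on which the lower bound fell depended on the markers chosen for the group. *Tbx21* kept the same order of groups in both genotypes and overlapped between them in each, at 84.5 and 85.5 CPM in effector-marked, 45.9 and 41.2 CPM in cycling and 22.01 and 23.3 CPM in *Ccr7*/*Lef1*-marked barcodes. *Zeb2*, like *Tbx21*, was higher in effector-marked than in cycling barcodes, and it was lower there in PEP-619WW (145 and 108 CPM, log2 −0.42, −0.70 to −0.15). *Batf* was at 130 and 88.0 CPM in cycling barcodes and at 106 and 103 CPM in effector-marked barcodes. *Runx3* was at 136 and 111 CPM in cycling and at 179 and 176 CPM in effector-marked barcodes.

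**Figure D3:**
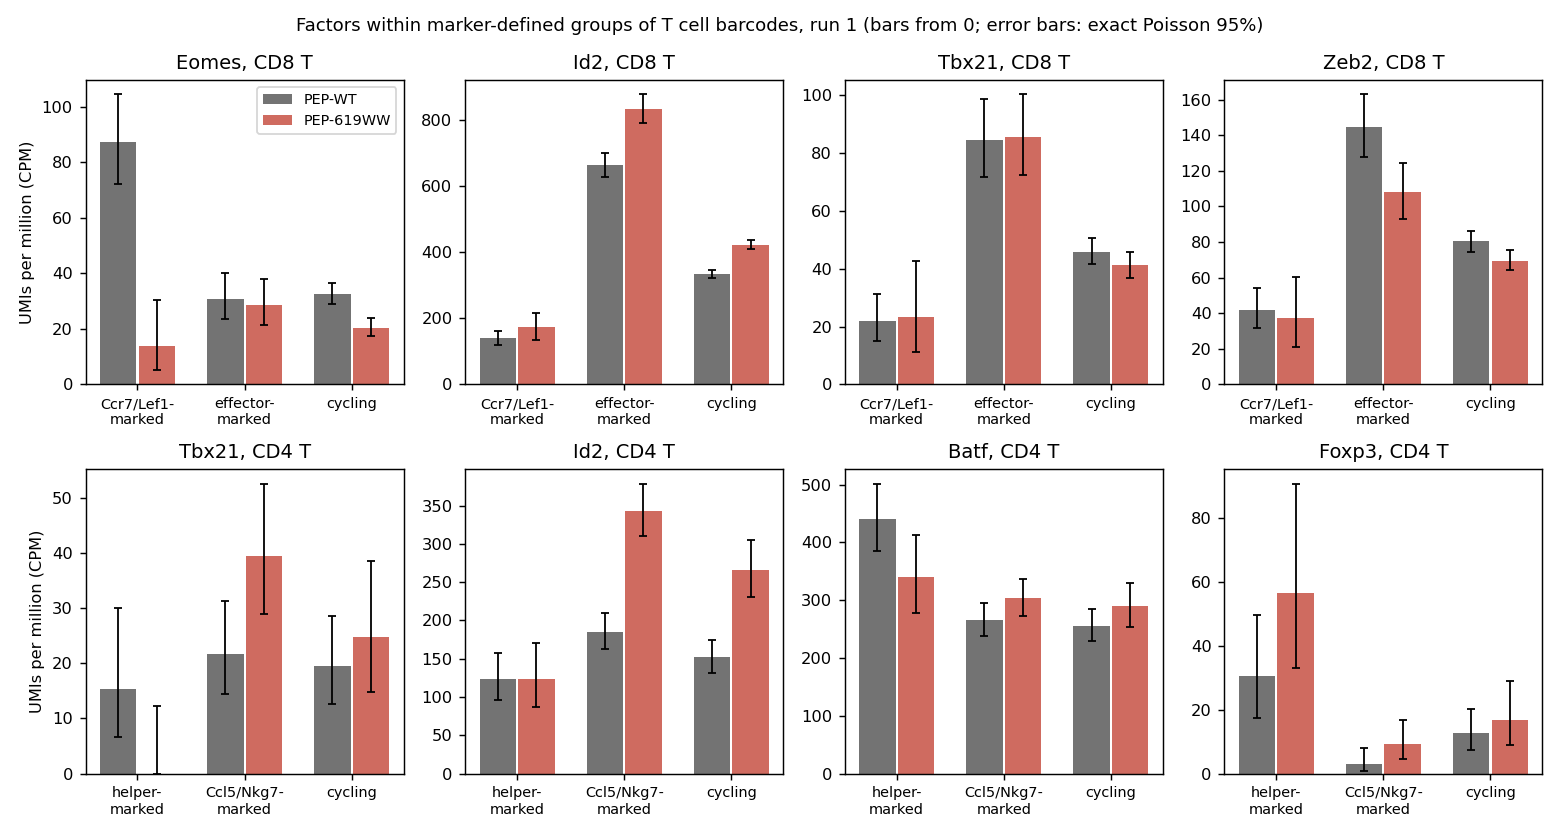
Level (CPM, axes from 0, exact Poisson 95% bars) of *Eomes*, *Id2*, *Tbx21* and *Zeb2* in groups of CD8 T barcodes and of *Tbx21*, *Id2*, *Batf* and *Foxp3* in groups of CD4 T barcodes, run 1. *Eomes* overlaps between genotypes in effector-marked barcodes (30.9 and 28.7 CPM) but not in *Ccr7*/*Lef1*-marked (87.3 and 14.0 CPM) or cycling ones (32.6 and 20.5 CPM), and *Id2* is higher in PEP-619WW in effector-marked and cycling barcodes.

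CD8 T barcodes with and without an *Eomes* UMI were set side by side, for listed genes and members picked after their values were seen. The 331 PEP-WT barcodes with *Eomes* held 59.2 CPM of *Ikzf2* against 37.5 CPM in the 1108 without, 112 against 87.0 CPM of *Tcf7* and 107 against 86.7 CPM of *Tox*, a factor of chronically stimulated T cells. In PEP-619WW, *Tox* was again higher beside *Eomes* (108 against 72.7 CPM, 184 and 769 barcodes), while *Tcf7* (41.2 against 40.6 CPM) and *Ikzf2* (29.8 against 28.9 CPM) were level. *Id2* was lower beside *Eomes* in both libraries (309 against 381 CPM and 449 against 533 CPM). *Zeb2* was lower beside *Eomes* in PEP-619WW (60.3 against 85.1 CPM) and level in PEP-WT (81.2 against 88.4 CPM). *Xcl1*, a chemokine for cross-presenting dendritic cells that was on no list, was 4.54-fold higher beside *Eomes* in PEP-WT (337 against 74.3 CPM) and 2.39-fold higher in PEP-619WW (64.1 against 26.9 CPM). Barcodes with *Eomes* were deeper (median 8525 against 5443 UMIs in PEP-WT, and 10941 against 7973 in PEP-619WW), so the values were read as CPM and not as shares of barcodes.

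Detection was read at equal depth. Each barcode with at least 2000 UMIs was thinned to that number and shallower ones were left out (43 PEP-WT and 31 PEP-619WW CD8 T barcodes, and 255 of the PEP-WT erythroid barcodes set beside them below). *Eomes* was then seen in 8.02% of PEP-WT barcodes (112 of 1396, with an exact binomial interval of 6.65 to 9.57). The PEP-619WW share was 4.99% (46 of 922, 3.68 to 6.60). These intervals did not overlap, whereas those of the shares without thinning, 23.0% (20.8 to 25.3) and 19.3% (16.8 to 21.96), did. *Id2* was seen in 45.6% (42.9 to 48.2) and 57.8% (54.5 to 61.0) at 2000 UMIs. *Tbx21* was in 11.7% and 12.1% at that depth, against 33.1% (30.6 to 35.6) and 43.5% (40.4 to 46.8) without thinning. In erythroid barcodes, which carried *Alas2*, 1 of 278 PEP-WT barcodes had *Eomes*, none had *Tbx21* and 6.47% had *Id2* at the same depth. For *Tbx21*, 0 of 278 allows a share of up to 1.32% by the exact interval. Whether the *Id2* UMIs there were background was not tested. PEP-619WW had 27 such barcodes and none with *Eomes* or *Tbx21*, which allows up to 12.8%, above the *Eomes* share of its CD8 T barcodes.

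Detection of pairs was also compared at 2000 UMIs. In PEP-WT, *Id2* was found in 61.6% (53.7 to 69.1) of CD8 T barcodes with *Tbx21* and in 43.4% (40.6 to 46.2) of those without. *Zeb2* was found in 21.95% (15.9 to 29.1) and 12.9% (11.1 to 14.9). In PEP-619WW, *Id2* was again more frequent with *Tbx21* (71.4% and 55.9%), whereas *Zeb2* was in 13.4% (7.69 to 21.1) and 14.3% (11.98 to 16.9). For *Eomes* no difference with *Tbx21* was detectable in either library (8.54% with and 7.95% without, then 5.36% and 4.94%), on 14 and 6 barcodes that held both. The difference between genotypes in these pairs was not tested.

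CD4 T barcodes of run 1 had higher *Id2* in PEP-619WW, while *Tbx21* was counted higher but not under every alternative. All 8 members had enough UMIs there, 2 were higher and none was lower, against a background of 11.7% higher and 10.2% lower (21.9% in either direction) among 9518 genes. A count of 2 of 8 does not stand apart from that background. *Id2* was at 146 CPM (131 to 162) in PEP-WT and 273 CPM (249 to 298) in PEP-619WW, a 1.87-fold difference (1.63 to 2.15). *Tbx21* was at 16.5 CPM (11.8 to 22.5) and 26.0 CPM (19.1 to 34.6), on 40 and 47 UMIs, and its interval on the log2 scale ran from 0.02 to 1.30. The *Id2* intervals were far apart, while those of *Tbx21* overlapped, and *Tbx21* was at log2 0.42, under 1.5-fold, when 2 UMIs of each gate gene were required. *Ccr7* or *Lef1*, without genes of the other groups, marked 17.8% (13.6 to 22.5) of PEP-WT and 8.33% (5.01 to 12.9) of PEP-619WW CD4 T barcodes (54 and 18), shares that were not read at equal depth. In the rest of the class *Id2* was at log2 0.90 (0.70 to 1.10) and *Tbx21* at 0.62 (−0.02 to 1.26).

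*Runx3*, which opposes CD4 identity in cytotoxic cells, was at 52.4 and 68.6 CPM (log2 0.39, 0.02 to 0.76, but −0.04 after thinning to 2000 UMIs), and *Zeb2* at 62.3 and 45.9 CPM (log2 −0.44, −0.85 to −0.05). *Batf* (286 and 305 CPM), *Gata3* (38.8 and 43.1 CPM) and *Foxp3* (12.4 and 16.0 CPM) had intervals that included 0. *Eomes*, at 15.3 and 14.4 CPM, rested on few barcodes, since 13 of 37 UMIs in PEP-WT and 15 of 26 in PEP-619WW lay in 1 barcode each. Without the barcodes that carried screen genes of other lineages, 6 members were past 1.5-fold, 5 higher and 1 lower, where 10.3% of all 7554 genes with enough UMIs were higher and 9.69% lower under the same filter. There *Id2* was at log2 1.40, *Runx3* at 0.86, *Foxp3* at 0.83, *Tbx21* at 0.81, *Eomes* at 0.63 and *Zeb2* at −0.91. No counting intervals were computed for this filtered set. Over all alternatives *Eomes* ran from −0.72 to 0.63, *Foxp3* from −0.295 to 0.87 and *Runx3* from −0.04 to 0.86, so these directions did not hold. *Id2*, *Tbx21* and *Zeb2* kept theirs.

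Among the 14 effector genes linked to T-box factors, 12 had enough UMIs, 8 were higher and none was lower in PEP-619WW. Their median log2 difference was 0.77 against 0.03 for all genes, of which 11.7% were higher and 10.2% lower. The list was chosen with earlier results of these data known, so this count is not an independent check. *Gzma* was at 10.3 and 116 CPM, *Ccl5* at 623 and 1300 CPM, *Il18rap* at 28.5 and 84.6 CPM, *Il12rb2*, the IL-12 receptor chain, at 5.36 and 19.4 CPM, and *Cxcr3* at 91.6 and 141 CPM. *Gzmb*, *Cxcr6* and *Cx3cr1* were the remaining 3. Of 24 listed factors with enough UMIs, 3 were higher and 2 lower, with a median of 0.33. This count does not stand apart from the background of 11.7% higher and 10.2% lower. *Maf* (149 and 252 CPM), *Stat5b* (38.4 and 67.5 CPM) and *Tox2* (43.7 and 71.3 CPM) were higher, and *Irf8* (116 and 64.7 CPM) and *Batf3* (26 and 4 UMIs) were lower.

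Marker-defined groups within the CD4 T class were also read, and a barcode could belong to more than 1 of them. *Ccl5* or *Nkg7*, without *Cxcr5*, marked 112 PEP-WT barcodes (36.8%, 31.4 to 42.5) and 116 PEP-619WW barcodes (53.7%, 46.8 to 60.5). These shares were not read at equal depth, and depth was higher in PEP-619WW. In the *Ccl5*/*Nkg7*-marked barcodes *Tbx21* was at 21.7 and 39.4 CPM (log2 0.86, 0.15 to 1.59), *Id2* at 185 and 343 CPM (log2 0.89, 0.66 to 1.13), and *Eomes* at 15.5 and 3.42 CPM on 20 and 4 UMIs. Cycling CD4 T barcodes had 152 and 266 CPM of *Id2*, with *Tbx21* at 19.4 and 24.7 CPM, an interval that included 0. Helper-marked barcodes (*Cxcr5* or *Izumo1r*, without *Ccl5* and *Nkg7*) had 8 *Tbx21* UMIs in PEP-WT (90 barcodes, 15.3 CPM) and none in PEP-619WW (45 barcodes), which allows up to 10.004 CPM by the limit of 3 counts, with an interval of the ratio that included 0. They had level *Id2* (124 and 123 CPM) and the highest *Batf* of the class, at 441 and 340 CPM (log2 −0.37, −0.73 to −0.03). *Foxp3* was at 30.5 and 56.7 CPM in the helper-marked barcodes (16 and 17 UMIs), against 12.4 and 16.0 CPM in the class. Regulatory T cells may thus be part of this group, and their share in it was not tested.

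*Foxp3* UMIs marked few CD4 T barcodes in run 1, 11 of 304 in PEP-WT (3.62%) and 16 of 216 in PEP-619WW (7.41%). At 2000 UMIs the shares were 2.14% (0.790 to 4.61) and 5.61% (2.93 to 9.59), which overlapped, against 0 of 278 erythroid barcodes in PEP-WT. In the run 2 PEP-619WW library, *Foxp3* was in 170 of 387 CD4 T barcodes (43.9%), and at 2000 UMIs in 72 of 340 (21.2%, 17.0 to 25.9). The *Foxp3* barcodes were examined with 16 regulatory T cell genes. *Il2ra*, the high-affinity IL-2 receptor chain, was at 125 CPM with and 20.4 CPM without *Foxp3* in run 1 PEP-WT, at 204 and 14.8 CPM in run 1 PEP-619WW, and at 241 and 84.3 CPM in run 2 PEP-619WW.

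Of the 16 genes, 9, 10 and 13 had a level beside *Foxp3* above the rest with an interval above 0, in the same order of libraries. The share of all genes that met this rule is not given here, so these counts have no background. The run 1 counts rest on 11 and 16 *Foxp3* barcodes. In run 2, *Ikzf2* (Helios) was at 937 and 305 CPM, *Ctla4* at 334 and 111 CPM, *Ikzf4* (Eos) at 78.7 and 21.2 CPM, and *Il10* at 20.04 and 0.685 CPM, while *Nrp1* was lower beside *Foxp3* (44.5 and 123 CPM). *Foxp3* barcodes of run 2 were deeper, with a median of 10122 against 4006 UMIs. Among the other members, *Id2* was lower beside *Foxp3* in all 3 libraries (83.5 against 150 CPM, 102 against 284 CPM and 477 against 685 CPM). *Batf* was lower beside *Foxp3* in run 1 PEP-WT (161 against 295 CPM) and higher in run 2 PEP-619WW (143 against 101 CPM).

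**Figure D4:**
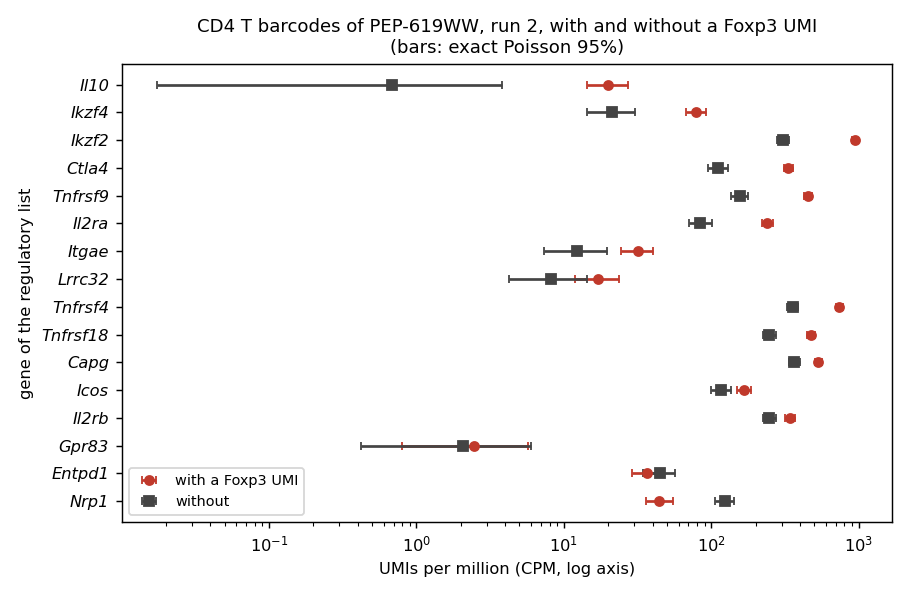
Levels (CPM, log axis, exact Poisson 95% bars) of the 16 regulatory T cell genes in CD4 T barcodes of run 2 PEP-619WW with (170) and without (217) a *Foxp3* UMI. *Ikzf2*, *Ctla4*, *Il2ra* and *Il10* are higher beside *Foxp3*, and *Nrp1* is lower.

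NK barcodes of run 1 were few, and 6 members had enough UMIs. *Gata3* was counted higher and *Zeb2* lower in PEP-619WW, against a background of 13.1% higher and 18.4% lower (31.4% in either direction) among 3954 genes. *Zeb2*, a factor of mature NK cells, gave 79 UMIs in PEP-WT (220 CPM, 174 to 275) and 27 in PEP-619WW (129 CPM, 85.1 to 188), a log2 difference of −0.77 (−1.46 to −0.12). *Gata3* rested on 14 and 15 UMIs, with an interval from −0.27 to 2.04. *Id2* was at 759 and 928 CPM, *Runx3* at 184 and 191 CPM, *Tbx21* at 114 and 100.5 CPM, and *Eomes* at 75.3 and 100.5 CPM, with a lower bound of 0.02 for *Id2* and intervals that included 0 for the other 3. The myeloid marker list was at 1679 CPM in PEP-WT and 15117 CPM in PEP-619WW NK barcodes. Without barcodes that carried screen genes of other lineages *Zeb2* was at log2 −1.11 and *Id2* at −0.18, and after thinning to 2000 UMIs *Zeb2* was at −0.41.

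Of the listed factors 12 had enough UMIs in NK barcodes, 4 were higher and 3 lower, with a median of 0.19. Among all genes of this class 13.1% were higher and 18.4% lower. *Klf2*, a factor of quiescent and recirculating lymphocytes, was at 466 and 871 CPM, and *Bhlhe40* at 131 and 220 CPM. *Lef1*, *Maf*, *Tcf7* and *Ikzf2* were also past 1.5-fold with intervals that included 0, and *Batf3* had 32 UMIs in PEP-WT and none in PEP-619WW. The effector genes *Il18rap* (223 and 392.3 CPM) and *Il12rb2* (10 and 15 UMIs) were higher, 2 of 12, with a median of 0.08.

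In B barcodes 7 members had enough UMIs, none was higher and *Eomes* was lower, against 7.66% higher and 5.65% lower (13.3% in either direction) among 13316 genes. *Eomes* gave 145 UMIs (4.08 CPM) in PEP-WT and 34 UMIs (1.58 CPM) in PEP-619WW. Most lay in barcodes that also carried *Cd3e*: among B barcodes with *Eomes* these were 79.5% in PEP-WT (66 of 83) and 84.6% in PEP-619WW (22 of 26), against 4.38% and 5.55% of those without it. The B barcodes with *Eomes* were also deeper than those without it, with medians of 11855 against 2799 UMIs in PEP-WT and 14904 against 3480 UMIs in PEP-619WW. In B barcodes free of *Cd3e* there were 21 and 4 *Eomes* UMIs, or 0.696 and 0.227 CPM. *Id2* in those barcodes stayed higher in PEP-619WW (41.8 and 52.2 CPM, log2 0.32, 0.20 to 0.45), and *Runx3* (50.9 and 37.0 CPM, log2 −0.46, −0.59 to −0.33) and *Batf* (24.6 and 18.6 CPM) stayed lower. *Zeb2* was level between genotypes in B barcodes with or without *Cd3e* (79.8 and 80.9 CPM in all). Of 24 listed factors *Prdm1* (18.9 and 32.7 CPM) and *Irf4* (41.2 and 62.8 CPM), both drivers of plasma cell fate, were higher and none was lower, with a median of 0.01. The 3-gene plasma cell list moved with them, at 3675 and 5593 CPM (in 79.9% and 88.8% of B barcodes), as did the myeloid list, at 1864 and 3111 CPM, and their part was not tested. Of the 14 effector genes *Cxcr3*, *Cxcr6*, *Il12rb2* and *Il18rap* were higher, *Gzma* and *S1pr5* were lower, and the median was 0.20. Listed factors and effector genes were not read again in B barcodes free of *Cd3e*. The 7-gene T cell list was in 17.2% and 24.5% of all B barcodes, and its part in these values was not tested.

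Run 2 allowed a comparison in CD8 T barcodes only, 28 in PEP-WT against 394 in PEP-619WW. All 8 members had enough UMIs, 3 were higher and 1 lower, where 29.2% of 9237 genes were higher and 12.7% lower (42.0% in either direction) and the median of all genes was shifted by 0.11. *Eomes* was again lower in PEP-619WW, at 158 and 101 CPM (log2 −0.64, −1.10 to −0.15), and it turned to 0.17 after thinning to 2000 UMIs. *Zeb2* was at 144 and 231 CPM but reversed under 3 alternatives, *Gata3* had 5 and 148 UMIs, and *Foxp3* had 1 and 127 UMIs. *Id2* (427 and 515 CPM), *Runx3* (183 and 230 CPM), *Batf* (93.4 and 91.1 CPM) and *Tbx21* (21.5 and 19.4 CPM) were under 1.5-fold. Of the 28 PEP-WT barcodes, 25 carried screen genes of other lineages and 92.9% carried UMIs of the myeloid list, and the genotypes in this run also differed in *Xist* and melanocyte genes, so genotype and library cannot be told apart. The listed factors had 12 of 23 higher and none lower (median 0.53), and the effector genes 3 higher and 5 lower of 12 (median −0.53).

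In the 394 CD8 T barcodes of run 2 PEP-619WW, the genes beside *Eomes* were in part those of run 1. The 122 barcodes with *Eomes* held more *Prf1* (273 against 72.7 CPM), *Gzmb* (668 against 243 CPM), *Tox* (157 against 83.6 CPM) and *Xcl1* (223 against 72.7 CPM) than the 272 without. They held less *Tcf7* (56.0 against 159 CPM) and *Zeb2* (140 against 311 CPM). *Tox* and *Xcl1* were higher and *Zeb2* lower beside *Eomes* in run 1 PEP-619WW too, where *Tcf7* was level. The run 2 barcodes with *Eomes* had a median depth of 8861 UMIs, against 3544 in those without. Of the 394 barcodes, 62.4% carried UMIs of the NK marker list and 48.7% carried screen genes of other lineages. The part of these in the values beside *Eomes* was not tested, and the genes named were picked after their values were seen.

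A part of the UMIs lay outside the 4 classes. The classes held 82.0% and 88.2% of *Tbx21* and 80.8% and 87.4% of *Eomes* UMIs in run 1 (PEP-WT, PEP-619WW), but 49.1% and 45.1% of *Zeb2*. Barcodes with *Csf1r*, a receptor of monocytes and macrophages, held 27.3% and 32.3% of *Zeb2* at 414 and 447 CPM, more than in any of the 4 classes. *Tbx21* and *Eomes* were near 0 in them, with 4 and 5, and 4 and 0 UMIs. Barcodes with *Xcr1* or *Clec9a*, genes of type 1 dendritic cells, held *Id2*, which those cells need, at 525 and 530 CPM, and no *Eomes*. Of the 126 and 56 *Foxp3* UMIs, 57.9% and 35.7% lay in barcodes that met no gate.

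The genes whose levels followed each member most closely over the 8 run 1 profiles (4 classes in both genotypes) were taken by Pearson r on log2(CPM + 1) among 11650 genes. *Tbx21* was followed by *Rap1b*, *Fasl* and *Lrrc8c* (r 0.998, 0.997 and 0.996), *Eomes* by *Adrb1*, *Cdc42* and *Otulinl* (0.991, 0.980 and 0.979), and *Id2* by *Ctsd*, *Lfng* and *Rnf166* (0.997, 0.996 and 0.996). *Zeb2* was nearest to *Sfxn2*, *Tsga10* and *Aars2*, *Gata3* to *Ddx28*, *Stat4* and *Rasl11a*, *Batf* to *Mrps6*, *Fis1* and *Wdr83os*, and *Runx3* to *Gimap7*, *Ncald* and *Rap2a*, all between 0.975 and 0.997. *Foxp3*, with 89 UMIs, was not compared. The 8 profiles share their libraries and gates, so these values describe likeness across 4 classes.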

How the data were processed

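Deposited counts were UMIs per gene and barcode, made by the authors with Cell Ranger (version 6.0.0 per the labels, another in the study's methods) on mm10, after their cell calling, from 10x 3′ v3 libraries. No further filter on cells was applied, every deposited barcode having at least 500 UMIs, and no doublet caller was run. UMIs were summed per class, library and gene (Python 3.11.15, scipy 1.17.1). With 1 library per genotype and run no test was possible. Levels carry exact Poisson, shares exact Clopper-Pearson, and ratios exact conditional binomial 95% intervals, which cover counting error only. A difference was counted at 1.5-fold with at least 20 UMIs, in classes with at least 20 barcodes in both libraries (the last limit was chosen after seeing the data). The scripts were tested on simulated counts with known answers. Alternatives changed gates, filters, thinning and scaling (TMM factors from edgeR 4.0.16). Gene lists had 26 factors, 14 effector genes and 16 regulatory genes. All 8 members are named, with listed genes past 1.5-fold (up to 12 per class) and the 3 nearest genes of each member. Members and lists were chosen with earlier results of these data known. Promoters are from RefSeq (13 windows for the 8 members). A further group of T cell barcodes, gated on markers fixed with the lists, is not reported here, and a *Ccr7*/*Lef1* gate chosen after seeing the data was read in its place.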

Additional observations from a re-analysis of the deposited data

Results flagged for a closer look

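*Runx3* differed between genotypes in opposite directions in different classes of run 1: log2 PEP-619WW over PEP-WT was −0.17 in CD8 T and −0.39 in B barcodes but 0.39 in CD4 T barcodes, each with a counting interval that excluded 0. Over the alternatives these values ran from −0.22 to −0.02 in CD8 T (−0.02 without barcodes carrying screen genes of other classes), from −0.44 to −0.32 in B and from −0.04 (thinned to 2000 UMIs) to 0.86 in CD4 T barcodes, so the CD4 T direction did not hold at equal depth. As reported, all 3 differences were under 1.5-fold, and the difference between classes was not tested. With 1 library per group, no group was large enough to look for samples far from the others.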

How the results depend on the processing

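Of the recomputed counts of members, 14 moved by over 1.5 times and 61 did not. Leaving out barcodes with screen genes of other classes gave 2 in CD8 T (1 in the report), 6 in CD4 T (2), 4 in NK (2) and 0 in B (1), where 13.0% (CD8 T) to 27.0% (NK) of all genes in each class were past 1.5-fold under the same filter. Requiring 2 UMIs of each gate gene gave 4 in CD4 T, 2 in B and 2 in run 2 CD8 T (4), beside 23.5%, 12.9% and 39.1% of all genes. Thinning to 2000 UMIs gave 4 in CD4 T, 0 in NK and 0 in B, beside 23.3%, 30.6% and 13.7%. Dropping the minimum of UMIs gave 2 in CD8 T and 2 in B, beside 33.2% and 34.8%. Leaving out the barcode with the most UMIs of each member, an alternative chosen after seeing the data, gave 4 in CD4 T. No share of all genes was computed for it, so that count has no background. Leaving out *Ccr7*/*Lef1*-marked barcodes, also chosen then, gave 2 in run 2 CD8 T, beside 40.5%. TMM, median-of-ratios, other totals and leaving out barcodes shared between libraries did not move these counts past that limit. The causes were not tested. *Eomes* in run 1 CD8 T stayed past 1.5-fold under all 13 alternatives (−0.94 to −0.67), *Id2* in CD4 T likewise (0.84 to 1.40), and *Tbx21* in CD4 T ranged from 0.42 to 1.39. In run 2 CD8 T, *Zeb2* reversed to −2.82 without barcodes that carried screen genes, −0.51 as a mean over barcodes and −0.37 when thinned, and *Eomes* to 0.17 when thinned. In PEP-WT, run 1, 6 members were highest in NK, and 5 under 3 of 4 alternatives. No paired analysis was possible because each genotype had 1 library in a run. Having 1 library per genotype and run limits every comparison.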
